A study of Mus musculus with 6 samples.

Results

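Among 10 genes of the integrated stress response and of serine and one-carbon synthesis, Phgdh and Asns fell in Mpst knockout adipose tissue. The messenger RNA of the central factor Atf4 stood near its wild-type level. Neither fall passed the test at an adjusted p under 0.05 when wild-type replicate 2 or any 1 knockout library was left out. Nor did either pass with libraries scaled to adipocyte markers, where Atf4 was higher (log2 fold change 0.54, edgeR adjusted p = 0.0286). The 10 genes were chosen by name, as known members of these pathways, with earlier results of these data in view. They comprise 4 regulators (Atf4, Atf5, Ddit3 and Trib3) and 6 enzymes (Asns, Chac1, Psat1, Phgdh, Mthfd2 and Shmt2), out of 24984 genes listed in the count files. All 10 passed the filter on low counts, which left 14065 genes for testing. All libraries came from the inguinal white fat pad, which lies under the skin, of mice fed a high-fat diet. WT HFD (n = 3) and Mpst knockout HFD (n = 3) were compared by bulk RNA sequencing, and the study asks how the loss of MPST, a sulfurtransferase of mitochondria and cytosol, alters fat tissue under this diet. The labels state neither age, sex and strain nor how the knockout allele was made. They also leave unsaid whether each library is a separate animal, so the p-values speak only for the scatter among these 6 libraries, which could be technical.

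In the integrated stress response, kinases that sense amino acid shortage, misfolded protein, heme shortage, mitochondrial stress or viral RNA phosphorylate the translation factor eIF2. General protein synthesis then slows, while upstream reading frames in the Atf4 message let more ATF4 protein be made, so that ATF4 activity is set largely at translation and the level of its messenger RNA need not follow it. ATF4 binds DNA with C/EBP partners at sites called C/EBP-ATF response elements and turns on genes of amino acid supply, among them Asns and the enzymes that make serine from a glycolytic intermediate. Mitochondrial dysfunction is a known trigger of this programme in several tissues.

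The stretches before the start sites of the enzymes that fell, Asns and Phgdh, and of Psat1, the enzyme that acts just after PHGDH, are shown because these genes share a pathway or a direction. They are the 250 bases before a RefSeq start on GRCm38.p6, 5′ to 3′ on the gene's strand, in lower case. Capitals mark the 8-base motifs TGATGNAA (the core of the C/EBP-ATF response element) and its variant TGGTGCAA, searched on both strands.
Asns: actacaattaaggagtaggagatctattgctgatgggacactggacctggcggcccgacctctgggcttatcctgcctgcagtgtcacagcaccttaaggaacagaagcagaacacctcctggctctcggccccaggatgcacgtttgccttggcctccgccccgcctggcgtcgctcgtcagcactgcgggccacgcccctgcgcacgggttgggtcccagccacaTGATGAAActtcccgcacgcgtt
Phgdh: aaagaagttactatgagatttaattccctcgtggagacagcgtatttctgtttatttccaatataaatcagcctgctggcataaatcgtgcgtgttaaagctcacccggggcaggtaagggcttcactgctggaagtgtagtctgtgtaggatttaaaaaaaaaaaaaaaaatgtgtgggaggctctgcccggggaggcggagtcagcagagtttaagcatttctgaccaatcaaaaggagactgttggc
Psat1: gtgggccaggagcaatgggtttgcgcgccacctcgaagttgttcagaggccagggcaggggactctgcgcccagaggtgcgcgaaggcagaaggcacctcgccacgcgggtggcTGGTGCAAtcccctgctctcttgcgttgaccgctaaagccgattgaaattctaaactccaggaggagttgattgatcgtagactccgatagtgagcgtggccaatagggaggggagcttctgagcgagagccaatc
The Asns stretch lies at chr6:7693210-7693459 on the minus strand, that of Phgdh at chr3:98339970-98340219 on the minus strand, and that of Psat1 at chr19:15925060-15925309 on the minus strand. In Asns the match TGATGAAA begins 23 bases before the start. These letters are known from the nutrient-sensing element of this gene. Psat1 holds TGGTGCAA 136 bases before one of its 2 RefSeq starts. In the Phgdh window neither motif occurs. RefSeq windows of 300 bases, which run from 250 bases before to 50 after a start, were found for all 10 genes, 12 windows in all. Of these, 4 hold either motif: besides Asns and Psat1, that of Trib3 has TGGTGCAA 33 bases before the start and TGATGTAA on the opposite strand after it, and that of Chac1 has TGATGCAA on the opposite strand 193 bases before it. Either motif occurs in 4.48% of the 32851 windows of the same length in the RefSeq table, TGATGNAA in 3.97% and TGGTGCAA in 0.536%. The motifs do not overlap each other, they were picked after the expression values were known, and a match is a description of letters, not of binding.

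Sequencing depth ran from 8054560 to 22458630 counts in genes per library, with knockout replicate 1 the lowest. The transcript Rn45s took 3.18%, 1.74% and 0.737% of these counts in wild type against 0.212%, 0.589% and 0.243% in knockout. Malat1 took 0.140%, 0.0902% and 0.177% against 0.0204%, 0.0315% and 0.0382%. Neither share overlapped between the genotypes, and the cause was not tested. With both transcripts left out, Phgdh and Asns stayed called. Mpst counts were 1358, 1394 and 1624 in wild type but 3, 10 and 9 in knockout, and each library matched its genotype label. Of the 14065 tested genes, 7.41% passed edgeR's quasi-likelihood test at an adjusted p under 0.05, 4.76% higher and 2.65% lower in knockout. Of the called genes 64.2% were higher, compared with 53.9% by DESeq2 and 50.5% with the trend on GC content and transcript length taken out.

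Of the 10 genes, Phgdh and Asns fell and none rose, both of them enzymes. None of the 4 regulators passed the test at an adjusted p under 0.05. At an unadjusted p under 0.05 with edgeR, 3 of the 4 regulators and 2 of the 6 enzymes were lower and none higher, where 12.7% of all tested genes were lower and 14.9% higher. DESeq2 called Atf5 besides Asns and Phgdh, where 13.7% of all genes with an adjusted p were called. The fitted log2 fold change, knockout against wild type, lay below 0 for 4 of 4 regulators (median −0.45) and for 4 of 6 enzymes (median −0.13). Over all tested genes 49.5% lay below 0 and the median was 0.01. The enzymes were thus more spread among themselves, from −0.86 to 0.52, than the regulators, from −0.46 to −0.07. Averaged over the 4 regulators, log2 CPM less the mean of the controls stood at −0.02, 0.06 and −0.03 for wild type against −0.28, −0.25 and −0.53 for knockout, the lowest being knockout replicate 3. Over the 6 enzymes these values were −0.05, 0.21 and −0.16, then −0.12, −0.18 and −0.21, with wild-type replicates 1 and 2 above all knockout libraries and replicate 3 among them. The libraries of the genotypes did not overlap, with knockout lower, for Atf5, Trib3, Asns and Phgdh, as was the case for 15.5% of all tested genes.

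**Figure D1:**
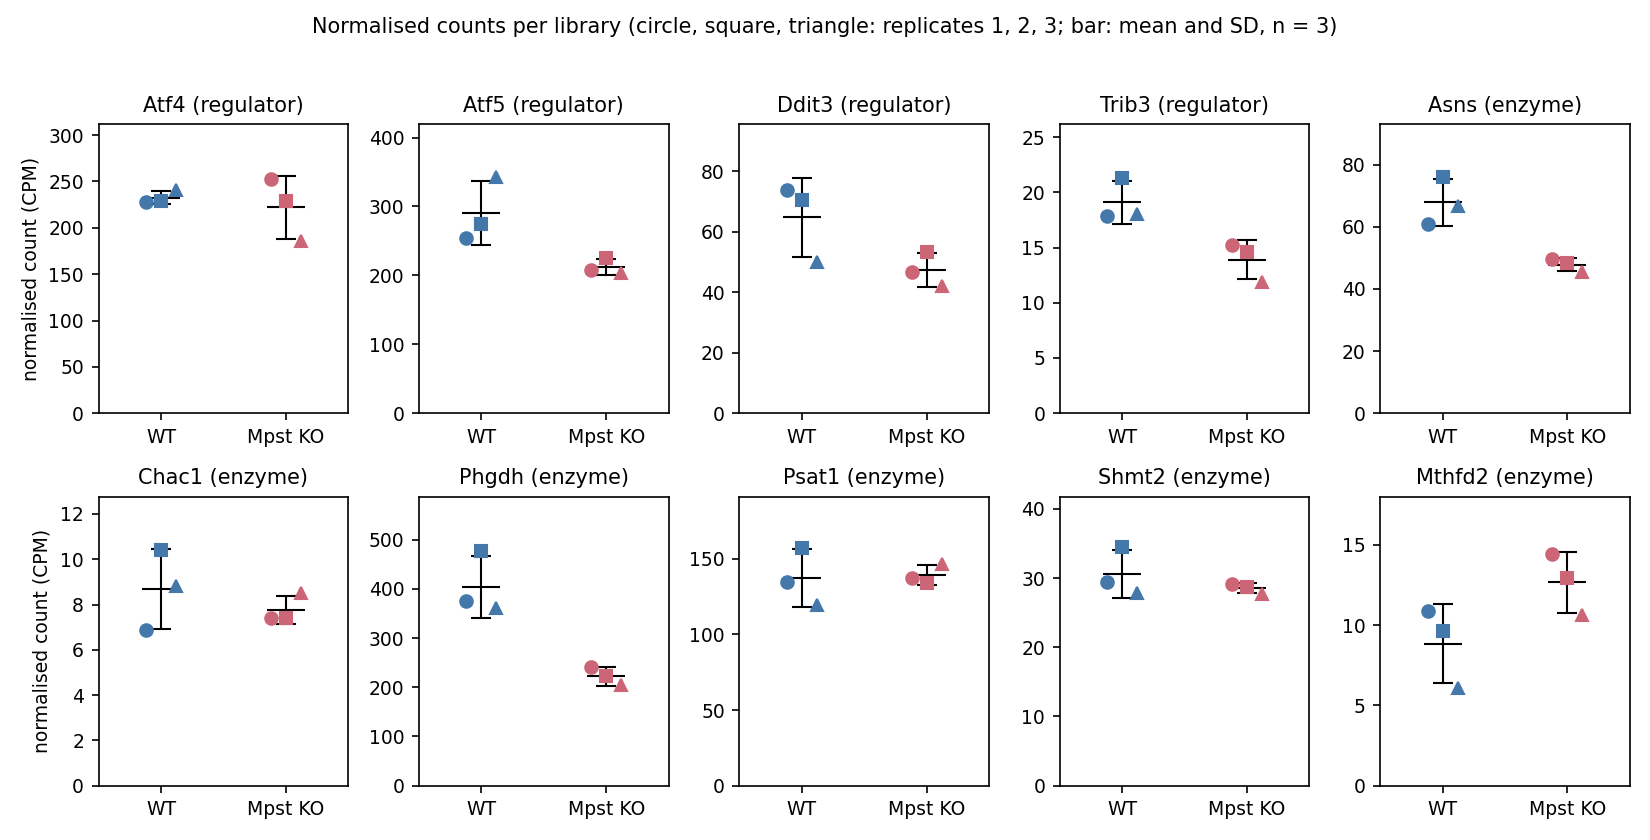
Counts scaled to the normalised library size (CPM, linear axis from 0) of the 10 genes, with wild type in blue and Mpst knockout in red. Each point is a library and the bars give the mean and SD (n = 3). The 3 knockout points lie below all wild-type points for Atf5, Trib3, Asns and Phgdh, and the groups overlap for the other 6 genes.

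Atf4, the factor through which the response acts on transcription, was measured in CPM, counts per 1000000 of the normalised library size, and stood at 228, 229 and 241 CPM in wild type against 252, 229 and 185 CPM in knockout. The highest and the lowest of the 6 values were both knockout libraries, and the groups overlapped. Its fitted log2 fold change came to −0.07 (SE 0.14, 95% interval −0.38 to 0.25, adjusted p = 0.797), an interval that leaves room for a modest change either way. Atf4 (ENSMUSG00000042406.8) lies on chromosome 15 from 80255184 to 80257541 of GRCm38, 1848768 bases from the start of Mpst itself. Of all tested genes 7.41% were called, 4.76% higher and 2.65% lower. Of 94 tested genes that start within 2 Mb of Mpst, 9 were called (9.57%), 2 higher and 7 lower. For genes there, the altered locus with its flanking DNA and the loss of MPST cannot be told apart.

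Atf5, a related factor whose protein is also made under eIF2 phosphorylation and which serves the mitochondrial unfolded protein response, stood at 253, 274 and 342 CPM in wild type against 208, 225 and 204 CPM in knockout. All knockout libraries lay below all wild-type libraries, and the wild-type spread came mostly from replicate 3. With a log2 fold change of −0.45 (SE 0.14, adjusted p = 0.0857) the gene did not pass. Ddit3, which encodes the pro-apoptotic factor CHOP, had 73.9, 70.6 and 49.9 CPM in wild type against 46.6, 53.3 and 42.0 CPM in knockout. Wild-type replicate 3 lay within the knockout range, and the log2 fold change of −0.45 (SE 0.17, adjusted p = 0.125) did not pass. Trib3, a pseudokinase induced by ATF4 and CHOP that feeds back on them, had 17.9, 21.3 and 18.02 CPM in wild type against 15.3, 14.6 and 11.9 CPM in knockout. Its groups did not overlap, and its log2 fold change was −0.46 (SE 0.16, adjusted p = 0.0977). Without wild-type replicate 3, Ddit3 was called (log2 −0.61, adjusted p = 0.0136), but not without replicate 1 (−0.34, adjusted p = 0.281). With the trend on GC content and length taken out, Atf5 stood at −0.26 (adjusted p = 0.333) and Trib3 at −0.32 (adjusted p = 0.182). On that setting Ddit3 stood at −0.46 (adjusted p = 0.0687). Exons of Ddit3 and Atf5 overlap genes on the opposite strand, 68 bases with Mars and 82 bases with Nup62 and Il4i1, and the kit does not mark strand. Ddit3 also shares 13 bases with Gm4189 on the opposite strand and 105 bases with a further Ddit3 entry on its own strand. Of the enzymes, Shmt2 shares 32 bases with Ndufa4l2 on the opposite strand.

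Among the enzymes, Asns, asparagine synthetase and a classical ATF4 target, fell from 61.0, 76.0 and 66.8 CPM in wild type to 49.7, 48.4 and 45.5 CPM in knockout. The knockout values lay close together and all below the lowest wild-type value. The mean was 67.9 ± 7.59 CPM in wild type against 47.8 ± 2.18 CPM in knockout (SD, n = 3), which is 1.42-fold lower (log2 −0.51, SE 0.12, 95% interval −0.78 to −0.23, adjusted p = 0.0408). Chac1, which degrades glutathione and is among the genes that ATF4 and CHOP induce, had 6.86, 10.4 and 8.82 CPM in wild type against 7.39, 7.39 and 8.49 CPM in knockout. The knockout libraries lay within the wild-type range (log2 fold change −0.16, SE 0.20, 95% interval −0.62 to 0.30, adjusted p = 0.646). Its paralog Chac2 had a log2 fold change of 0.66 (adjusted p = 0.109).

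Serine is made from 3-phosphoglycerate in sequence by PHGDH, PSAT1 and PSPH, and of these steps only the first passed the test. Phgdh (ENSMUSG00000053398.11, chromosome 3 from 98313170 to 98339990) fell from 376, 476 and 361 CPM in wild type to 242, 222 and 204 CPM in knockout. The highest knockout library stood well below the lowest wild-type library. The mean was 404 ± 62.6 CPM in wild type against 223 ± 19.1 CPM in knockout, which is 1.82-fold lower (log2 −0.86, SE 0.15, 95% interval −1.20 to −0.52, adjusted p = 0.0191). Psat1, the transaminase of the second step, had 135, 157 and 120 CPM in wild type against 138, 134 and 147 CPM in knockout, where all knockout libraries lay within the wild-type range. Its log2 fold change was 0.02 (SE 0.13, 95% interval −0.27 to 0.32, adjusted p = 0.926), an interval that does not reach the change of Phgdh. Psph, the phosphatase of the last step, averaged 31.3 ± 1.35 CPM in wild type against 29.5 ± 4.42 CPM in knockout (−0.09, adjusted p = 0.699). The sequence of Phgdh matches 9 processed pseudogenes at 95% identity or more over at least 75 bases, the read length. Of these, 7 match over more than 1500 bases, and reads shared with these copies make its count uncertain. None of the 9 is among the counted genes, so reads of the copies could not be compared between the genotypes.

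SHMT2 moves a carbon unit from serine to folate in mitochondria, and MTHFD2 oxidises the product. Shmt2 had 29.5, 34.5 and 27.9 CPM in wild type against 29.2, 28.7 and 27.8 CPM in knockout, which overlap (log2 fold change −0.10, SE 0.12, adjusted p = 0.637). Mthfd2 had 10.8, 9.60 and 6.08 CPM in wild type against 14.4, 12.9 and 10.7 CPM in knockout. It thus had the highest fitted value of the 10 genes, and its groups overlapped only through wild-type replicate 1 and knockout replicate 3 (log2 fold change 0.52, SE 0.24, 95% interval −0.02 to 1.05, adjusted p = 0.195). The cytosolic paralog Shmt1 (−0.46, adjusted p = 0.246), the mitochondrial synthetase Mthfd1l (0.35, adjusted p = 0.406) and Mthfd2l (−0.03, adjusted p = 0.942) did not pass either.

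Ratios of raw counts within a library do not depend on scaling between libraries. The 5 ratios computed, chosen after the values were seen and given without a test, set genes that act in sequence beside each other. Phgdh had 2.79, 3.03 and 3.02 reads per read of Psat1 in wild type against 1.76, 1.66 and 1.39 in knockout. Per read of Psph it had 11.96, 14.6 and 12.1 in wild type against 7.10, 7.66 and 8.06 in knockout. Neither ratio overlapped between the genotypes. The ratio of Asns to Atf4 was 0.268, 0.332 and 0.277 in wild type against 0.197, 0.211 and 0.245 in knockout, so the target was lower relative to the message of its regulator in every knockout library. Mthfd2 relative to Shmt2 was 0.368, 0.279 and 0.218 in wild type against 0.494, 0.452 and 0.384 in knockout, apart by a narrow margin.

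**Figure D2:**
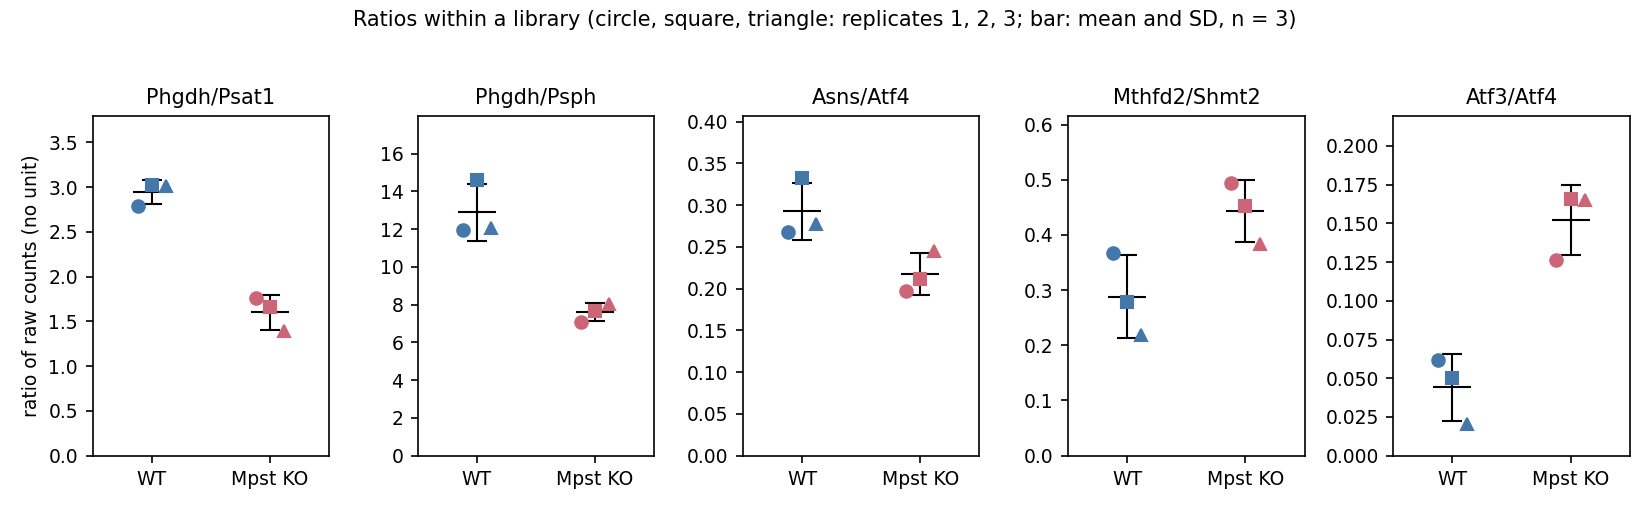
Ratios of raw counts of 2 genes within each library (no unit, linear axes from 0), wild type in blue and Mpst knockout in red, with mean and SD (n = 3). Phgdh against Psat1 goes from 2.94 ± 0.133 to 1.60 ± 0.192, and Atf3 against Atf4 from 0.0441 ± 0.0214 to 0.152 ± 0.0227.

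Compared per kilobase of exon, Phgdh, Atf5 and Atf4 were the most abundant of the 10 messages in wild type, at 163 ± 25.2, 146 ± 23.3 and 98.6 ± 3.08 CPM per kilobase. The levels of Phgdh and Atf5 did not differ beyond their spread. Then came Ddit3 (37.8 ± 7.59), Psat1 (32.3 ± 4.47) and Asns (24.8 ± 2.78). The means of Ddit3 and Psat1 lay within the spread between libraries, but per kilobase Ddit3 was the higher in every wild-type library. Shmt2 (9.85 ± 1.10), Trib3 (8.98 ± 0.919), Chac1 (5.31 ± 1.08) and Mthfd2 (2.54 ± 0.709 CPM per kilobase) were the lowest. The means of Shmt2 and Trib3 lay within their spread, but per kilobase Shmt2 was the higher in every wild-type library. In knockout Atf5 (106 ± 5.603) and Atf4 (94.2 ± 14.5) stood first, followed by Phgdh (89.6 ± 7.70 CPM per kilobase), and neither Atf5 and Atf4 nor Atf4 and Phgdh differed beyond their spread. Psat1 (32.8 ± 1.54) then stood above Ddit3 (27.6 ± 3.32), and the order of the others was as in wild type.

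Beyond the 10 genes, 79 others of the pathway, in overlapping lists written from textbook knowledge, gave 77 tested genes. Of these, 3 rose and 1 fell with edgeR's test, while DESeq2 called 12. For comparison with these counts and those of the lists below, 4.76% of all tested genes rose and 2.65% fell with edgeR. DESeq2 called 13.7% of all genes with an adjusted p. At the level of eIF2, Impact, an inhibitor of the amino acid sensor GCN2, rose from 38.1, 32.6 and 41.8 to 51.4, 61.4 and 59.2 CPM (1.53-fold, log2 0.61, SE 0.13, adjusted p = 0.0334). With edgeR it was the 1 gene called of 18 that act at eIF2 (kinases and their regulators, subunits, exchange factor and phosphatases), and the list's median was −0.03. DESeq2 called Impact higher and Eif2ak2, Eif2b3 and Eif2b4 lower, the last pair being subunits of the exchange factor. None of the 4 kinases passed edgeR's test. Eif2ak3 (PERK, the sensor of the endoplasmic reticulum) had a log2 fold change of 0.56 (adjusted p = 0.0864), Eif2ak4 (GCN2) 0.36 (adjusted p = 0.181), Eif2ak2 (PKR) −0.54 (adjusted p = 0.0865, but 0.0459 with DESeq2 and 0.0352 without the GC and length trend) and Eif2ak1 (HRI, the heme sensor) 0.07 (adjusted p = 0.788). The phosphatase subunit Ppp1r15a, itself a target of the response, stood at −0.05 (adjusted p = 0.848) and Ppp1r15b at 0.10 (adjusted p = 0.747).

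Of 10 partner factors and stress-induced regulators, 2 rose and none fell with edgeR, while DESeq2 called 4 higher (Nfe2l2 and Sesn2 besides Atf3 and Ddit4) and 1 lower (Nupr1). Atf3, a stress-induced factor of the same family and a known ATF4 target, rose from 14.0, 11.5 and 4.88 CPM in wild type to 31.8, 37.9 and 30.6 CPM in knockout. Every knockout library exceeded every wild-type library, and wild-type replicate 3 was the lowest. The change was 3.32-fold (log2 1.73, SE 0.32, adjusted p = 0.0238). The Atf3 promoter window holds TGATGCAA on the opposite strand, 110 bases before the start. The windows of Ddit4, Stc2 and Psph, searched in the same way, hold neither motif, and Impact had no window. Ddit4, an inhibitor of mTORC1 induced by stress and low oxygen, rose 2.05-fold from 72.6, 54.5 and 37.2 to 120, 125 and 92.4 CPM (log2 1.04, SE 0.23, adjusted p = 0.0351). Both factors are also induced by other routes than ATF4. The C/EBP partners stood at −0.64 for Cebpb (adjusted p = 0.363) and −0.01 for Cebpg (adjusted p = 0.955), and the Trib3 paralogs at −0.06 for Trib1 (adjusted p = 0.918) and 0.26 for Trib2 (adjusted p = 0.194).

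Of 28 further ATF4 targets, which include Atf3 and Ddit4, 2 rose and 1 fell with edgeR, with a median of 0.07, and DESeq2 called 4 higher and 2 lower. The one that fell was Stc2, a secreted stanniocalcin induced by stress of the endoplasmic reticulum, from 15.9, 20.6 and 16.7 CPM to 9.18, 10.6 and 10.5 CPM, a 1.75-fold drop (log2 −0.80, SE 0.16, adjusted p = 0.0284). Gdf15 and Fgf21, hormones that tissues with mitochondrial stress secrete, had few counts. Gdf15 stood at 2.21, 2.55 and 1.35 CPM in wild type against 5.48, 3.61 and 3.18 CPM in knockout, without overlap (log2 0.99, SE 0.33, adjusted p = 0.0998). Fgf21 had raw counts of 29, 34 and 13 against 14, 55 and 36 (log2 0.37, adjusted p = 0.637). The cystine transporter Slc7a11 had 10 to 14 counts in wild type and 11 to 16 in knockout, too few to show a moderate difference (log2 0.36, SE 0.42, adjusted p = 0.619).

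Of 28 genes of serine, glycine and folate metabolism, 26 were tested with edgeR and none was called, while 5 were lower and 1 higher at an unadjusted p under 0.05, where 12.7% of all tested genes were lower and 14.9% higher. DESeq2 called 1 gene of the list, Amt, as lower. Amt, the aminomethyltransferase of the glycine cleavage system, had the smallest p of the list with edgeR (log2 −0.71, adjusted p = 0.0887). The list's median was −0.09.

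**Figure D3:**
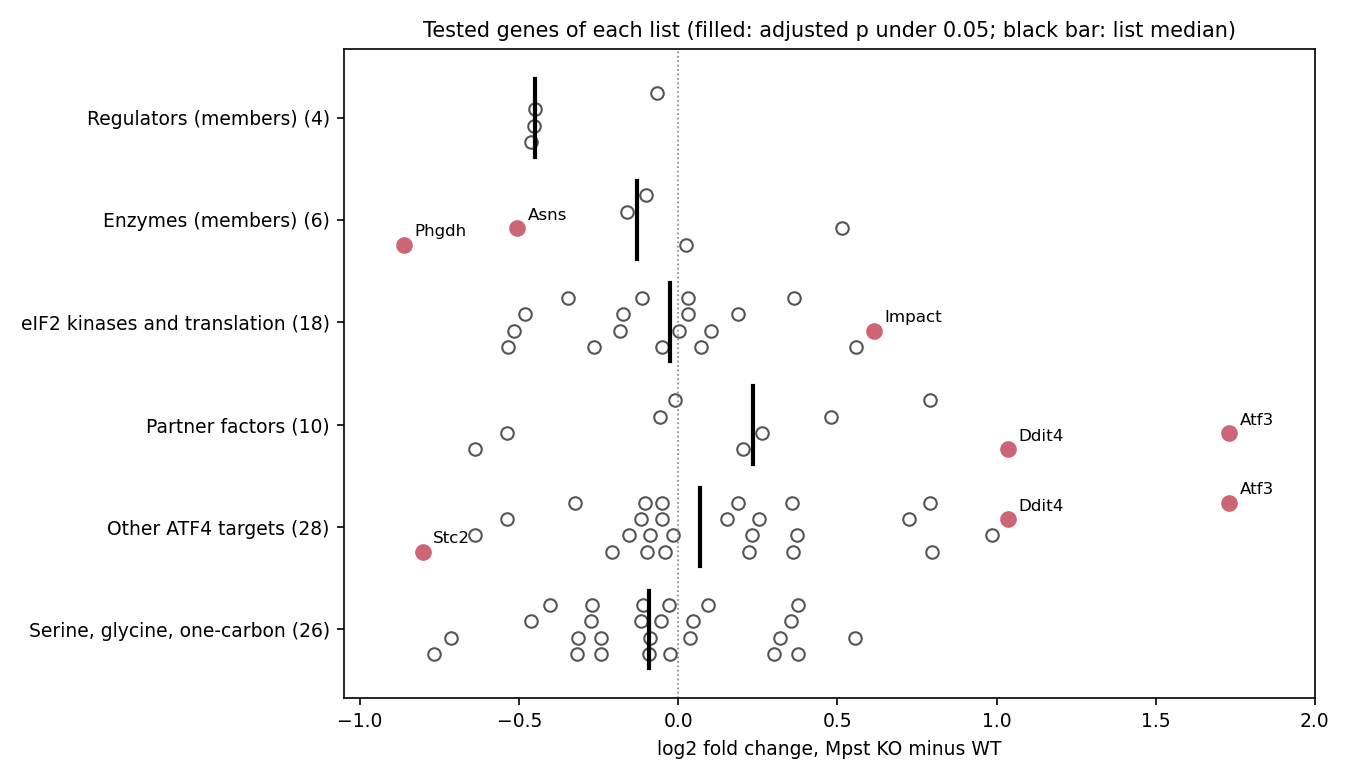
Log2 fold change (knockout minus wild type) of each tested gene of the member and pathway lists, with the number tested after each name. Filled points passed the test, and black bars mark list medians. Phgdh, Asns and Stc2 are filled on the left, Impact, Ddit4 and Atf3 on the right, and Atf3 and Ddit4 are each drawn in 2 of these lists.

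Calls for these genes, like those of the whole table, depended on which libraries were kept. Phgdh and Asns stayed called without wild-type replicate 1 (801 genes called in all) or replicate 3 (2601 genes). The calls of Phgdh and Asns were absent without wild-type replicate 2 and without any 1 of the 3 knockout libraries, when between 1 and 46 genes in all were called. Over these 4 fits the log2 fold change of Phgdh ran from −0.93 to −0.73 (edgeR adjusted p from 0.0714 to 0.102) and that of Asns from −0.53 to −0.42 (adjusted p from 0.119 to 0.162). Atf3, Ddit4, Impact and Stc2 lost their calls in the same 4 fits, and Impact also without wild-type replicate 1 (adjusted p = 0.0622). Impact was also not called with all libraries thinned to the smallest, nor with the trend on GC content and length taken out. Asns was not called after thinning. Wild-type replicate 2 and knockout replicate 3 had the most skeletal muscle RNA, at 1032 and 2351 CPM summed over 11 markers against 108 to 252 CPM in the others. Without both, the log2 fold change was −0.67 for Phgdh (adjusted p = 0.284) and −0.38 for Asns (adjusted p = 0.341), with 1 gene called in all.

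Cell-type markers differed between the same libraries, and in bulk tissue fewer cells of a type and less RNA per cell cannot be told apart. The 12 adipocyte markers summed to 59119 to 69930 CPM in wild type against 39380 to 48128 CPM in knockout, with a median log2 fold change of −0.55, and 3 of 12 fell. The 15 macrophage markers summed to 944 to 1809 CPM in wild type against 2560 to 2831 CPM in knockout, and 7 of 15 rose. The 8 markers of progenitors and fibroblasts summed to 3024 to 4092 and 4612 to 5610 CPM, and 2 of 8 rose (the matrix genes Dcn and Col3a1). Of the other members, Pi16 (−2.10, adjusted p = 0.109) and Dpp4 (−0.46, adjusted p = 0.416) lay below 0, and the list's mean log2 level overlapped between the genotypes. The 7 T cell markers summed to 7.91 to 14.95 and 13.0 to 37.1 CPM, which overlap. B cell markers summed to 4.92 to 11.3 CPM in wild type against 8.49 to 11.2 CPM in knockout. Neutrophil markers summed to 25.4 to 41.6 against 21.2 to 30.8 CPM, and endothelial markers to 839 to 889 against 957 to 1128 CPM. Of the 6 neutrophil markers 3 were tested and 1 of them fell, while no B cell or endothelial marker passed the test. Mammary epithelial markers stayed at or under 1.52 CPM with 4 of 10 at 0 counts in all libraries. When libraries were scaled to the adipocyte markers, a setting added after the data were seen, the median of all genes moved up by 0.60. On that scale Phgdh stood at −0.25 (adjusted p = 0.241), Asns at 0.11 (adjusted p = 0.555) and Stc2 at −0.19 (adjusted p = 0.382), none of them called, and Atf4 at 0.54 (adjusted p = 0.0286). The part of cell composition in the falls and rises of the 10 genes was not tested further.

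**Figure D4:**
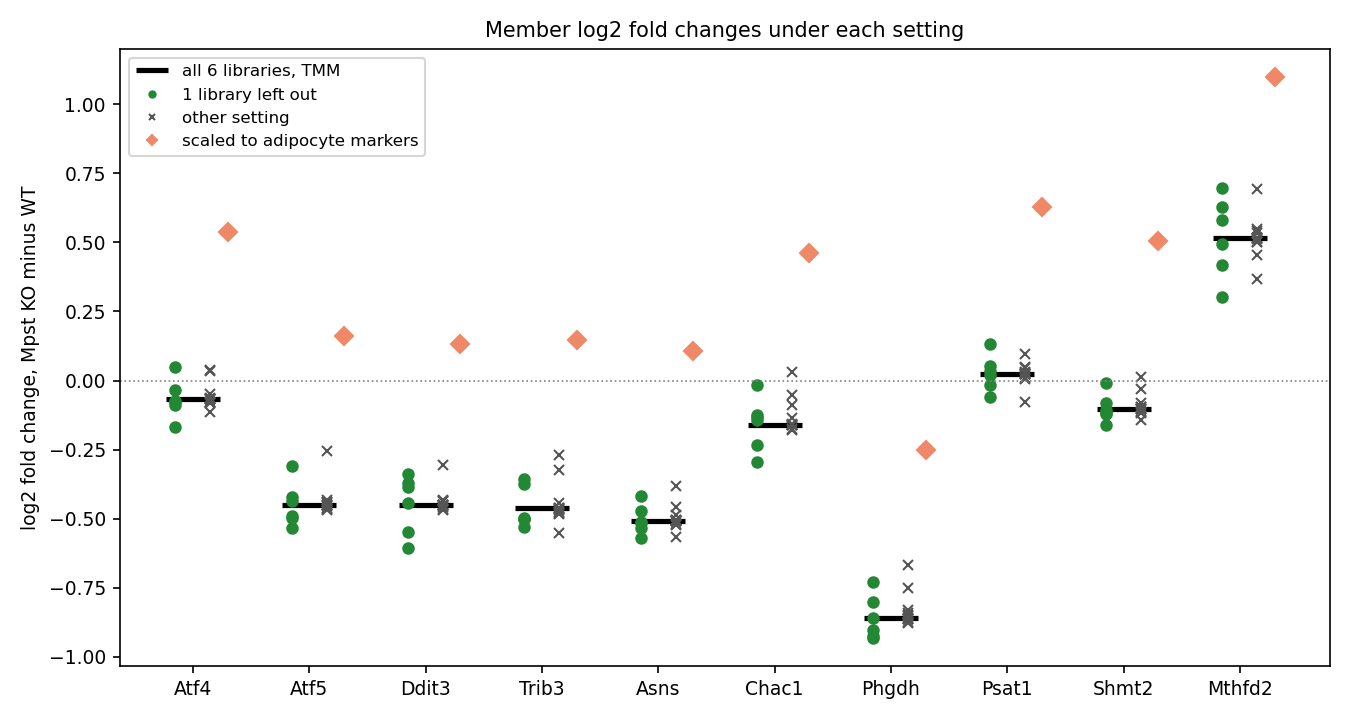
Log2 fold change (knockout minus wild type) of the 10 genes with all 6 libraries (black bars), with 1 library left out (green), under other settings (grey crosses) and scaled to adipocyte markers (orange diamonds). Atf5, Ddit3, Trib3 and Asns lie below 0 except on the adipocyte scale, Phgdh lies below 0 and Mthfd2 above 0 throughout, and Atf4, Psat1, Chac1 and Shmt2 lie near 0 or change sign.

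Likeness between genes was measured over the 6 libraries, and so contains the difference between the genotypes. The correlation of log2 CPM was 0.98 between Phgdh and Asns and 0.96 between Phgdh and Trib3, while it was 0.38 between Phgdh and Atf4 and 0.09 between Phgdh and Psat1 (Pearson's r, n = 6 libraries). These values describe 6 libraries that differ in genotype and depth, and they carry no test. The tested genes most like Phgdh in this measure were Gatd1, Asl (argininosuccinate lyase of the urea cycle) and Mrpl37 (a mitochondrial ribosomal protein), at r of 0.997, 0.996 and 0.996, and 704 genes exceeded 0.9. Those most like Atf4 were Angptl6 (0.99), 4930432K21Rik (0.98) and Wdr45b (0.98), and 50 genes exceeded 0.9.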

How the data were processed

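RNA was measured in 3 wild-type and 3 Mpst knockout libraries. Per the labels' protocols, TRIzol RNA was made into TruSeq RNA v2 libraries and read as 75-base single ends. Per the submitters' processing notes, HISAT2 2.1.0, HTSeq 0.13.5, DESeq2 1.26 and the build mm10 were used. For annotation and counter settings, nothing is stated in these sources. The authors deposited raw counts per gene symbol, and reads that fall in no gene (8.85% to 14.7% of unique reads) were left out.

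The main test was edgeR 4.0.16 in R 4.3.3, with all 6 libraries and no covariate (filterByExpr, trimmed mean of M-values, robust quasi-likelihood F test), with p-values adjusted by Benjamini-Hochberg over 14065 genes and called under 0.05. Each SE was taken as |log2 fold change| over the root of F, and 95% intervals use the test's degrees of freedom. Replicates differed by more than sampling noise. The test was checked on simulated counts. GENCODE M21 on GRCm38 gave positions, GC content and exon lengths, RefSeq (GRCm38.p6) gave promoters, and similar transcripts were found with blastn 2.17.0. Marker lists and the 79 pathway genes were matched by symbol, 8 through synonyms.

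The members and lists were chosen with earlier results of these data known. Named genes were the 10 members, Mpst, called genes of each pathway list or the one with the smallest p, a set of partners and paralogs, and the 3 genes most correlated with Atf4 and Phgdh. Alternatives were other scalings, DESeq2 1.42.0, limma-voom (limma 3.58.1), other filters, a replicate block, no robust estimation, a GC and length correction, thinning, leaving out Rn45s and Malat1, and leaving out each library. Scaling to adipocyte markers and leaving out the 2 libraries highest in muscle transcripts were added after seeing the data.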

Additional observations from a re-analysis of the deposited data

How the results depend on the processing

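Over 189 refits of the 10 genes under 19 settings, 155 kept their direction and their side of the threshold. Of the others, 12 lost a call, 7 gained one and 15 changed sign. Asns stayed called in 12 of its 19 refits and Phgdh in 13, and the other genes had no call to lose. With each library left out, genes called ranged from 1 to 2601 (higher 0 to 1434, lower 1 to 1167), members called from 0 to 3, called pathway genes from 0 to 14 and called genes near Mpst from 0 to 21. The regulator median then ranged from −0.50 to −0.36, the enzyme median from −0.21 to −0.01 and the median of all 10 from −0.32 to −0.23. DESeq2 called 1903 genes (1026 higher, 877 lower), 12 pathway genes and 19 near Mpst. The pairing of replicate numbers was checked from deviations that same-numbered libraries share, with correlations of 0.17, −0.10 and 0.30. With 3 libraries per group, these values cannot decide whether same-numbered libraries share more than a number. Libraries of pair 3 matched their own number best, and those of pairs 1 and 2 did not. With the replicate block 2676 genes were called (1387 higher, 1289 lower), with 5 members, Atf5, Ddit3 and Trib3 among them, 16 pathway genes, the kinase Eif2ak3 among them (0.57), and 27 near Mpst, and 51.8% of calls were higher. Without the GC and length trend 377 genes were higher, the median of the 10 was −0.17 and the regulator median −0.29, and the log2 fold changes of Atf4 (0.035), Chac1 (0.032) and Psat1 (−0.079) changed sign. Among genes of at least 10 CPM the median of the members left was −0.43, since fewer of them were tested, and after thinning 1 member was called. The sign turned for Psat1 (−0.060) when wild-type replicate 3 was left out, and for Atf4 (0.049), Psat1 (−0.015) and Psph (0.0065) when knockout replicate 3 was. Scaled to adipocyte markers, 7636 genes were called (7590 higher, 46 lower), with 4 members, 42 pathway genes and 37 near Mpst. The median of the 10 was then 0.31, of the regulators 0.15 and of the enzymes 0.48, and signs changed for Atf4 (0.54), Atf5 (0.16), Ddit3 (0.13), Trib3 (0.15), Asns (0.11), Chac1 (0.46), Shmt2 (0.50), Psph (0.51) and Eif2ak2 (0.066). Without the 2 libraries highest in muscle transcripts 1 gene was called (0 higher, 1 lower), with 0 members, 0 pathway genes and 0 near Mpst. The median of the 10 was −0.18, that of the regulators −0.29, and Atf4 (0.038), Shmt2 (0.011) and Psph (0.036) changed sign. Unless given above, the cause of these shifts was not tested. Depth limits genes of few counts most in knockout replicate 1.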
